A study of Mus musculus with 11 samples.

Results

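A set of 10 islet genes was followed through whole mouse pancreas, namely Ins1, Ins2, Iapp, Gcg, Sst and Ppy (hormones), Pdx1 and Mafa (transcription factors of the beta cell) and Chga and Chgb (granins). They were picked by name from the 54532 rows of the deposited count table, and all 10 were found and passed the filter on low counts that 14113 genes passed. Polyadenylated RNA was sequenced in 11 libraries of C57BL/6JRj pancreas, 1 per mouse by the labels. Of these, 3 were from mice aged 18 months (aged) given caerulein, 3 from mice aged 7 weeks (young) given caerulein, 2 from aged untreated mice, numbered 2 and 3, and 3 from young untreated mice. Caerulein, a cholecystokinin analogue that in excess injures acinar cells, was injected into the peritoneum at 125 µg/kg, 4 times at hourly intervals. Treated mice carry the label 5H, and since the design text dates sampling from the first injection while the protocol lists 4, no other time is given here. The untreated mice are labelled as having no treatment, so no vehicle injection is recorded for them. The study asked how age alters the start of pancreatitis.

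The islets of Langerhans are small clusters of endocrine cells scattered through a gland that is mostly acinar tissue. Beta cells make insulin, which in the mouse comes from a pair of genes, and store it with amylin in dense-core granules, while alpha, delta and PP cells make glucagon, somatostatin and pancreatic polypeptide. Because islets are few and unevenly spread, the amount of islet RNA in a sample of pancreas can depend on where it was taken. In bulk RNA, fewer cells of a type and less RNA per cell cannot be told apart.

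Sequence upstream of the start is shown for 4 of the genes whose transcripts moved together between libraries, to show which short motifs they do and do not share. Of the 10 genes, 8 had an entry in the RefSeq promoter table (GRCm38.p6, the assembly also called mm10); none was found there for Ins2 and Mafa. Capitals mark CATCTG, the E-box read by factors such as NEUROD1, and TAAT, the core of homeodomain sites such as those of PDX1, on either strand, in Ins1 (chr19:52264047-52264296, plus strand, 250 bases) and Iapp (chr6:142298175-142298422, plus strand, 248 bases). The run of ATTAAT in Iapp holds a match on each strand.
Ins1: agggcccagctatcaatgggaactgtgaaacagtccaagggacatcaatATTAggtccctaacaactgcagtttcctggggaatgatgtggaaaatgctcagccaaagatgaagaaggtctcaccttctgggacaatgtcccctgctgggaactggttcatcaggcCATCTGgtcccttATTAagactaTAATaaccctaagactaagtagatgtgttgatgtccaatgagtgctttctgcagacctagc
Iapp: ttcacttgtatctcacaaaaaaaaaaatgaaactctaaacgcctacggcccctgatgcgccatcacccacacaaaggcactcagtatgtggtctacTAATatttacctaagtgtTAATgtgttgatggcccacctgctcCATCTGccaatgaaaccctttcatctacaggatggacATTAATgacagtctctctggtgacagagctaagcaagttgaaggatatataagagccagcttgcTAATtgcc
In Sst (chr16:23890874-23890903, minus strand) and Chgb (chr2:132781559-132781588, plus strand), capitals mark TGACGTCA, the cAMP response element, which reads the same on both strands. Only 30 bases round the motif are shown, since both stretches lie inside the gene span of the authors' annotation.
Sst: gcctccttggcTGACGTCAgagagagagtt
Chgb: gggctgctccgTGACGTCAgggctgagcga
Within 250 bases upstream of the start, CATCTG was present in 3 of the 8 genes (Ins1, Iapp and Gcg) and in 14.4% of 32851 windows of that length. TAAT was present in 5 (Ins1, Iapp, Gcg, Sst and Chga) and in 54.9% of windows, and TGACGTCA in 2 (Sst and Chgb) and in 1.55%. Ppy and Pdx1 held none of these letters in that window. None of these 3 motifs was present in all 8 genes with an entry. Other motifs were not searched, and shared control is not read from these matches.

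Total counts per library ranged from 14223190 to 26537091, and the scaling factors (trimmed mean of M values, TMM) from 0.696 to 1.29. The library of young untreated mouse 2 stood apart in cells that are not endocrine. The summed B cell and plasma cell markers reached 253 CPM of its total there, against 5.38 CPM in the next highest library, T cell and NK cell markers 126 against 1.28 CPM, and adipocyte markers 646 against 38.6 CPM. Values without that library stand beside the results that it moves most. Insulin reads were found in every library, and 22 of 24 listed beta cell genes passed the filter.

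The insulins were the most abundant islet transcripts, and they varied widely between mice of one group. Levels here are CPM, the reads of a gene per 1000000 reads of the library after TMM scaling. Ins2, the ancestral insulin gene, was at 96.4, 250 and 1145 CPM in the 3 aged caerulein mice, at 1118, 87.4 and 538 CPM in the young caerulein mice, at 181 and 653 CPM in aged untreated mice 2 and 3, and at 1505, 114 and 542 CPM in the young untreated mice. Ins1, the retroposed copy found in rodents, was at 37.5, 102 and 449 CPM in aged caerulein, 401, 27.7 and 189 CPM in young caerulein, 67.1 and 253 CPM in aged untreated, and 562, 44.6 and 207 CPM in young untreated mice. For both genes the high libraries were mouse 3 of the aged groups and mouse 1 of the young groups, the low ones were mouse 1 of aged caerulein and mouse 2 of the other groups, and all 4 groups overlapped. Within the young untreated mice alone Ins2 spanned 13.2-fold, and over all 11 libraries 17.2-fold. Insulin reads were 0.0141% to 0.202% of a library, and the lowest library still held 2912 of them, so counting error is small beside this spread.

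Iapp encodes amylin, which beta cells release with insulin. Its level was 12.4, 37.9 and 136 CPM in aged caerulein, 138, 10.3 and 65.5 CPM in young caerulein, 16.8 and 65.9 CPM in aged untreated, and 122, 11.9 and 48.3 CPM in young untreated mice. The same mice were high and low as for insulin, and the groups overlapped. Slco1a5 overlaps Iapp on the opposite strand, and its 1 to 8 reads per library stood beside 200 or more for Iapp.

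The hormones of the other islet cells followed the same mice. Gcg, which encodes glucagon, was at 9.39, 34.8 and 150 CPM in aged caerulein, 301, 7.23 and 117 CPM in young caerulein, 15.4 and 67.8 CPM in aged untreated, and 201, 45.4 and 66.3 CPM in young untreated mice. Its 41.6-fold range within the young caerulein mice was the widest of the 10 genes in any group. Sst, the somatostatin of delta cells, was at 2.25, 4.00 and 15.4 CPM in aged caerulein, 28.6, 1.54 and 10.7 CPM in young caerulein, 3.28 and 10.1 CPM in aged untreated, and 26.0, 4.16 and 8.40 CPM in young untreated mice. Ppy, the pancreatic polypeptide, was low, at 0.649, 1.41 and 4.83 CPM in aged caerulein, 5.27, 0.632 and 2.96 CPM in young caerulein, 1.18 and 2.92 CPM in aged untreated, and 4.05, 1.60 and 1.38 CPM in young untreated mice. Groups overlapped for all 3 hormones, and Ppy was the only one of the 10 genes for which young untreated mouse 3, not mouse 2, was the lowest of its group.

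Of the transcription factors, Mafa, which binds the insulin promoters and marks mature beta cells, was the scarcest of the 10 genes. It was at 0.382, 0.877 and 1.78 CPM in aged caerulein, 2.00, 0.277 and 0.988 CPM in young caerulein, 0.336 and 1.95 CPM in aged untreated, and 3.99, 0.480 and 1.15 CPM in young untreated mice, on 4 to 71 reads per library. Pdx1, a homeodomain factor needed to form the pancreas and for beta cell function and also present at a lower level in acinar cells, behaved differently. It was at 1.15, 1.17 and 2.00 CPM in aged caerulein, 1.66, 1.26 and 1.30 CPM in young caerulein, 3.86 and 4.44 CPM in aged untreated, and 6.30, 2.40 and 4.09 CPM in young untreated mice. At each age all caerulein libraries lay below all untreated ones, on 24 to 112 reads per library.

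The granins are acidic proteins of dense-core granules in all islet endocrine cells. Chga (chromogranin A) was at 7.87, 23.0 and 85.6 CPM in aged caerulein, 116, 7.59 and 46.7 CPM in young caerulein, 11.3 and 42.8 CPM in aged untreated, and 90.9, 7.71 and 35.3 CPM in young untreated mice. Chgb (chromogranin B) was at 0.878, 2.53 and 9.38 CPM in aged caerulein, 11.2, 0.909 and 5.77 CPM in young caerulein, 1.26 and 5.47 CPM in aged untreated, and 10.005, 1.36 and 3.51 CPM in young untreated mice. Both kept the order of the mice seen for insulin, and their groups overlapped.

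**Figure D1:**
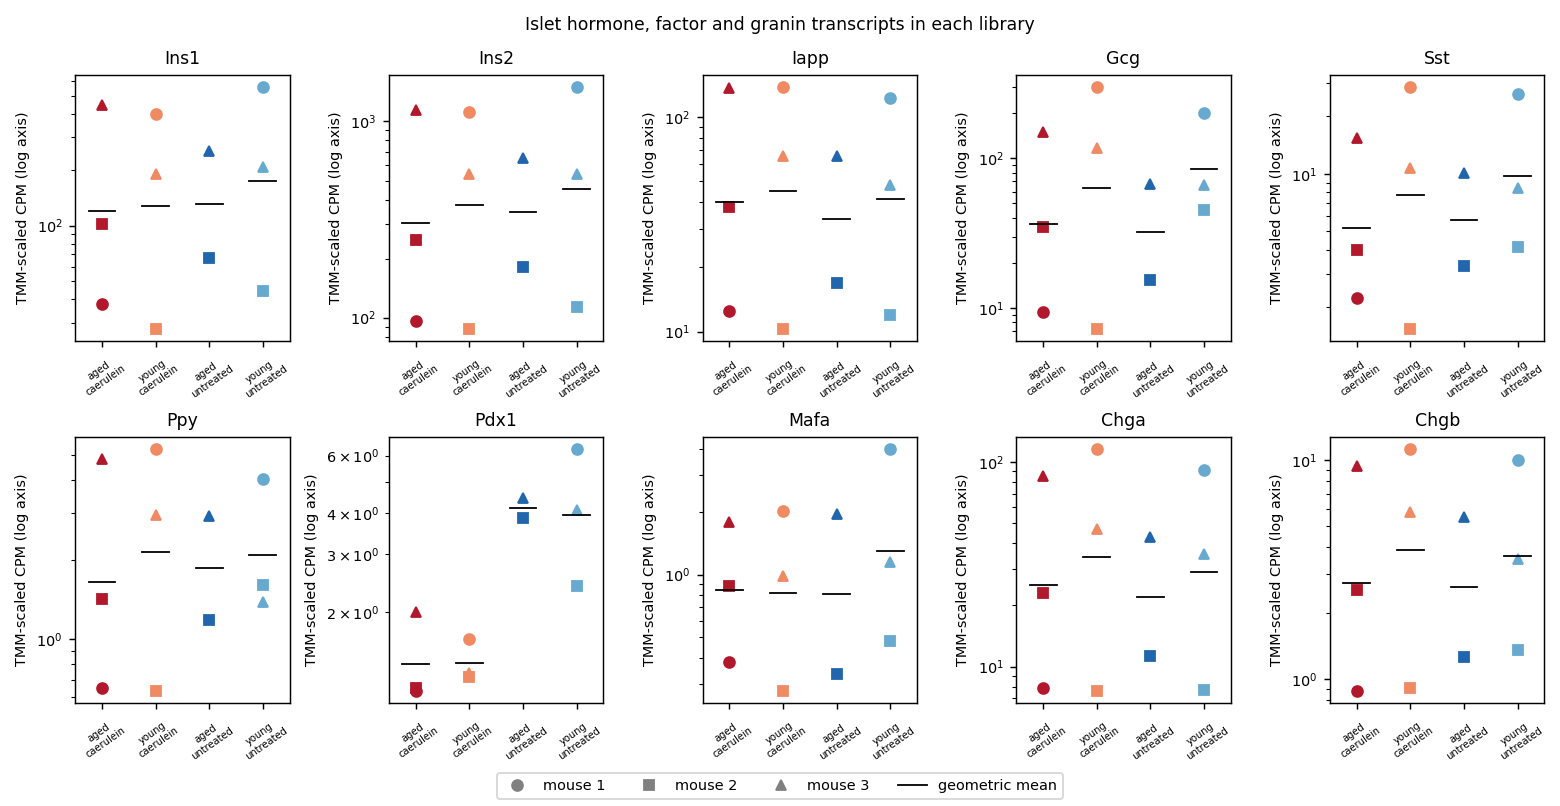
TMM-scaled CPM (log axis) of the 10 genes in each of 11 libraries, with groups from left to right aged caerulein, young caerulein, aged untreated and young untreated, 1 marker per mouse and a line at the geometric mean. In the panels other than Pdx1 the groups overlap and the same mice are high and low, apart from the lowest young untreated mouse for Ppy, while for Pdx1 the caerulein libraries (1.15 to 2.00 CPM) lie below the untreated ones (2.40 to 6.30 CPM).

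Per kilobase of the authors' gene length, the order of the levels was Ins2 (geometric mean over the libraries 279 CPM per kilobase), Ins1 (135), Iapp (41.4), Gcg (34.95), Chga (10.1), Sst (9.71), Ppy (3.85), Chgb (1.18), Pdx1 (1.05) and Mafa (0.341). Ins2 exceeded Ins1, and Ins1 exceeded Iapp, in all 11 libraries. Iapp was above Gcg in 7 of 11 libraries, Chga above Sst in 7 and Chgb above Pdx1 in 5, so these neighbours were not set apart. The length of 1312 bases that the authors give for Ins2 exceeds its longest GENCODE M21 transcript (918 bases), which lowers its value on this scale.

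The spread between libraries of the same group was large for every gene but Pdx1. The pooled within-group SD of log2 CPM was 2.01 for Gcg, 1.81 for Ins1, 1.79 for Ins2, 1.78 for Chga and 1.73 for Iapp. It was 1.60 for Chgb, 1.58 for Sst, 1.29 for Mafa and 1.21 for Ppy, against 0.45 for Pdx1 and a median of 0.30 over the 14113 genes. Of all genes tested, 0.404% had a larger spread than Gcg, 0.758% than Ins2, 3.49% than Ppy and 30.3% than Pdx1.

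These deviations were shared. Once each group mean was subtracted from log2 CPM, the deviation of a library in Ins2 was matched by the other genes over the 11 libraries. For Ins1 Pearson's r was 0.9995 (Spearman's rho 1.00), for Chga 0.998 (0.991), for Iapp 0.997 (0.991), for Chgb 0.989 (0.982), for Sst 0.971 (0.973), for Mafa 0.959 (0.927), for Gcg 0.935 (0.936), for Ppy 0.917 (0.918) and for Pdx1 0.854 (0.909). Each of the 9 relations had an exact 2-sided permutation p of 0.00231 within groups for both measures, the smallest that the 432 orderings allow, except Ppy (exact permutation p = 0.00463 for both). Without the 2 libraries farthest from the median of Ins2, young caerulein mouse 2 and young untreated mouse 2, r lay between 0.866 (Pdx1) and 0.9996 (Ins1). All genes of a library share its depth and scaling, but the median r with Ins2 over the other 14112 genes was -0.05, and 282 of them (2%) exceeded 0.8.

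How strongly a gene followed differed more than whether it did. Per unit of log2 Ins2, the deviation was 1.05 for Gcg, 1.01 for Ins1, 0.99 for Chga, 0.96 for Iapp, 0.88 for Chgb and 0.86 for Sst. These slopes are near 1, which means near proportion to insulin on average only. The ratio of Gcg to Ins2 reads still spanned 4.83-fold over all libraries. The deviation was 0.69 for Mafa and 0.62 for Ppy, both with few reads, and 0.21 for Pdx1.

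**Figure D2:**
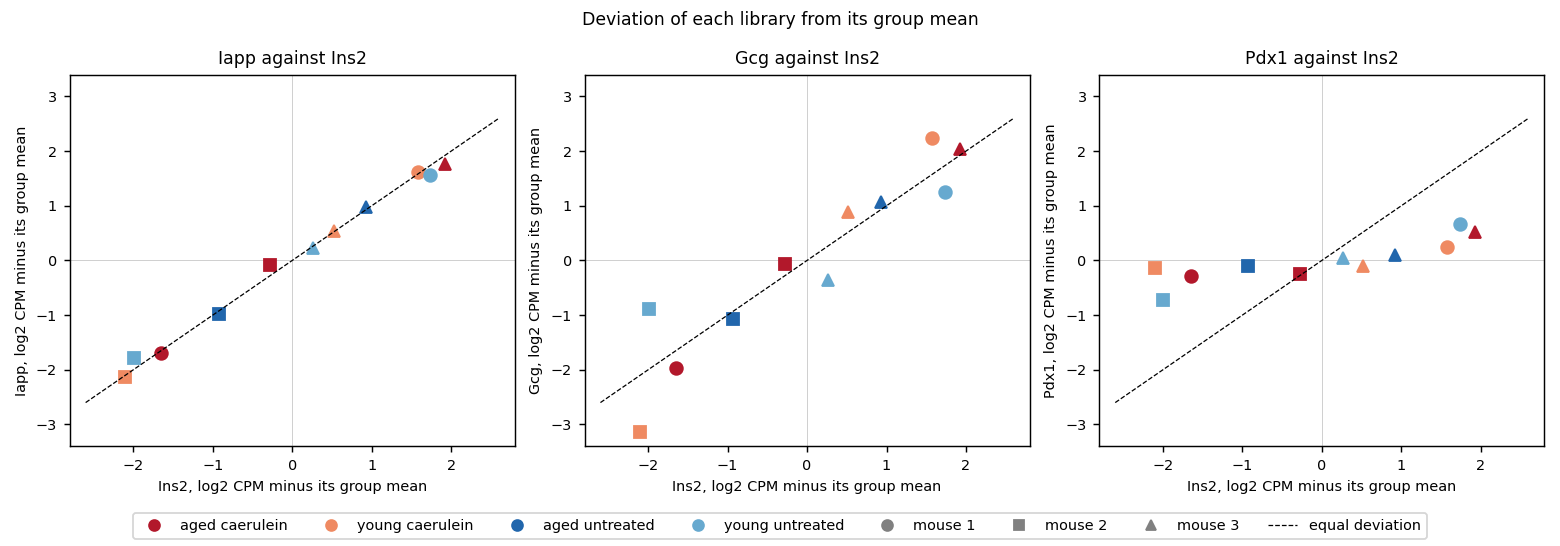
Deviation of each library from its group mean in log2 CPM, with Ins2 on the horizontal axis and Iapp, Gcg or Pdx1 on the vertical axis, colours for the 4 groups and marker shapes for the mouse number. Iapp lies along the line of equal deviation (slope 0.96), Gcg scatters about it (1.05) with young untreated mouse 2 above it, and Pdx1 is much flatter (0.21).

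Likeness was ranked among 7262 tested genes with a mean of at least 5 CPM, the 10 members left out. Most like Ins2 were Scg2 (secretogranin II, r 0.995), Pcsk2 (a prohormone convertase, 0.994), Scg3 (secretogranin III, 0.994) and G6pc2 (the islet glucose-6-phosphatase subunit, 0.974). The imprinted gene Peg3 (0.973), the deacetylase Hdac6 (0.960), Enho (the peptide adropin, 0.957) and the imprinted noncoding RNA Meg3 (0.952) completed the first 8. Those most like Gcg were Scg2 (0.959), Pcsk2 (0.957), Scg3 (0.935), Peg3 (0.928) and Plekha6 (0.917), and without young untreated mouse 2 the r of Scg2 with Gcg was 0.989 and that of Pcsk2 0.994. Their slopes on Ins2 differed, at 1.02 for Scg2, 0.99 for Pcsk2, 0.88 for G6pc2 and 0.85 for Scg3. They were 0.65 for Peg3, 0.55 for Meg3, 0.23 for Enho, 0.22 for Plekha6 and 0.13 for Hdac6. Plekha6, unlike Gcg, was called lower after caerulein at both ages (-2.06 in aged, -1.90 in young mice). Of the beta cell genes tested, 14 of 22 had r above 0.8 with Ins2, of the endocrine granule genes 15 of 20, of the alpha cell genes 2 of 8, and of the delta, PP and epsilon cell genes 2 of 6, against 2% of all genes. Ucn3, a peptide of mature beta cells, was at 0.986 and Slc30a8, their zinc transporter, at 0.987.

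Caerulein was then set against no treatment. Pdx1 was lower after caerulein at both ages, and none of the hormones, granins or Mafa passed the test at either age. Pdx1 averaged 1.44 ± 0.486 CPM in aged caerulein (SD, n = 3) and 4.15 ± 0.408 CPM in aged untreated mice (n = 2), a log2 fold change of -1.54 ± 0.40 (SE, quasi-likelihood F test of edgeR, Benjamini-Hochberg adjusted over all genes, adjusted p = 0.00759). In young mice it averaged 1.41 ± 0.216 CPM after caerulein and 4.26 ± 1.95 CPM untreated (n = 3 each), a log2 fold change of -1.59 ± 0.36 (edgeR adjusted p = 0.00362). One of the 10 genes was thus called in the aged comparison, where 48.2% of all genes were called and 21.2% called lower, and 1 in the young comparison, where the shares were 52.3% and 24.7%. Groups that do not overlap, with caerulein lower, were also found for 1 of the 10 genes at each age, against 33.4% of all genes in aged and 26.5% in young mice. In the authors' deposited table Pdx1 was at -1.58 (adjusted p = 0.00106) in aged and -1.62 (adjusted p = 0.00276) in young mice, and no other member passed there.

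The fall of Pdx1 was seen in a gland whose acinar transcripts also fell. Of 15 acinar markers, 13 were lower after caerulein at each age, against 21.2% of all genes in aged and 24.7% in young mice. Their sum was 395430 to 411340 CPM of library totals in aged caerulein and 396490 to 412260 in young caerulein mice. It was 516890 to 546910 in aged untreated and 496210 to 535810 in young untreated mice. None of these markers was at 0 in any group, and their part in the Pdx1 result was not tested. The antisense gene Plut overlaps Pdx1 and had 2 to 16 reads per library, and the strand setting of the counting is not given in the sources used here. With library totals in place of TMM, a scaling that moved the median of all genes up by 0.61 in aged and 0.50 in young mice, the aged call was lost (-0.89, adjusted p = 0.086), and it was also lost without aged untreated mouse 3 (-1.41, adjusted p = 0.0643). Scaling by 16 islet content genes ended both calls (-1.24 and adjusted p = 0.344 in aged, -1.03 and adjusted p = 0.36 in young mice), and moved the median of all genes up by 0.43 in aged and 0.41 in young mice. In this scaling 1 gene, Ptprn2, itself called lower at both ages, made up 31.7% to 82.0% of the counts that set the scale. Without young untreated mouse 2 the young value was -1.93 (adjusted p = 7.44e-05).

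For the other 9 genes the intervals were wide. In aged mice the log2 fold change after caerulein was 0.29 ± 1.22 for Ins1, 0.25 ± 1.21 for Ins2 (95% interval -2.42 to 2.93, edgeR adjusted p = 0.884), 0.57 ± 1.18 for Iapp, 0.62 ± 1.31 for Gcg, 0.05 ± 1.13 for Sst and 0.12 ± 0.93 for Ppy. Mafa was at -0.24 ± 1.03, Chga at 0.50 ± 1.21 and Chgb at 0.28 ± 1.15. In young mice it was -0.40 ± 1.09 for Ins1, -0.31 ± 1.08 for Ins2 (95% interval -2.69 to 2.07, edgeR adjusted p = 0.828), 0.24 ± 1.03 for Iapp, 0.45 ± 1.14 for Gcg, 0.09 ± 0.96 for Sst and 0.34 ± 0.81 for Ppy. Mafa was at -0.77 ± 0.90, Chga at 0.35 ± 1.06 and Chgb at 0.28 ± 0.99. Several-fold changes either way lie inside these intervals, so a change of that size was not detectable when mice were compared without pairs. When young mice of the same number were taken as pairs, a model of the young libraries alone chosen after these data were seen, the intervals were narrower. Ins1 was lower after caerulein in 3 of 3 pairs (-0.46 ± 0.19, 95% interval -0.92 to 0.0079, edgeR adjusted p = 0.099), as were Ins2 (-0.29 ± 0.20, interval -0.78 to 0.19, adjusted p = 0.267) and Mafa (-0.69 ± 0.37, interval -1.60 to 0.21, adjusted p = 0.176), and none of these passed. In that model 43.5% of 12848 genes were called, and of the 10 only Pdx1 (-1.52 ± 0.31, adjusted p = 0.0118). Gcg was at -0.30 ± 0.72 there, with an interval of -2.06 to 1.47, and Iapp at 0.12 ± 0.18 and Chga at 0.23 ± 0.16 were lower in 1 of 3 pairs each. The labels do not say what a shared number means. In both young groups Ins2 was highest in mouse 1 and lowest in mouse 2. Pairing was chosen with this known, so the narrower intervals and pair counts are not evidence from paired animals. In the comparison without pairs a single mouse set the sign. Ins2 was at -1.27 in aged mice without caerulein mouse 3 and at 1.48 without untreated mouse 3, and in young mice at -1.21 without caerulein mouse 1 and at 0.82 without untreated mouse 1.

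Comparing ages, none of the 10 genes passed in untreated mice, where 0.0921% of all genes were called, in caerulein mice, where 3.73% were, or in the difference between the caerulein responses, where 0.0142% were, and none had an unadjusted p below 0.05 in edgeR's test. By the authors' deposited tables none passed in the untreated or the caerulein comparison of ages. Aged over young, the log2 fold change of Ins2 was -0.79 ± 1.24 in untreated and -0.23 ± 1.08 in caerulein mice, and that of Gcg was -1.31 ± 1.34 in untreated and -1.14 ± 1.16 in caerulein mice. Without young untreated mouse 2 the untreated value was -1.30 for Ins2 and -1.67 for Gcg. Pdx1 was at -0.03 ± 0.39 in untreated mice and 0.02 ± 0.37 in caerulein mice. The aged minus young difference of the caerulein response was 0.05 ± 0.54 for Pdx1 (95% interval -1.13 to 1.23) and 0.56 ± 1.63 for Ins2.

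Ratios of islet transcripts within a library do not depend on its depth or scaling, and most were far steadier than the levels. Per 100 Ins2 reads, Iapp had 12.9, 15.2 and 11.9 reads in aged caerulein, 12.4, 11.8 and 12.2 in young caerulein, 9.29 and 10.1 in aged untreated, and 8.09, 10.5 and 8.92 in young untreated mice. Chga had 8.16, 9.21 and 7.48 reads in aged caerulein, 10.3, 8.68 and 8.69 in young caerulein, 6.23 and 6.57 in aged untreated, and 6.04, 6.78 and 6.51 in young untreated mice. Both ratios were higher in every caerulein library than in every untreated one, while the levels of Iapp and Chga overlapped between groups.

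Of the 9 genes set over Ins2, the caerulein ratios lay wholly above the untreated ones for 3 in aged mice (Ins1, Iapp and Chga), against 6.42% of all genes, and for 2 in young mice (Iapp and Chga), against 2.49%. They lay wholly below for Ins1 in young mice, against 0.872% of all genes, and for none in aged mice, against 2.64%. Most genes do not follow Ins2, which lowers all of these percentages, so they do not measure how unusual the members are. To compare levels at equal Ins2, each library's log2 Ins2 level was added to the edgeR model as a covariate, a choice made after these data were seen. The slope on Ins2 was fitted freely, so this tests a ratio only where the slope is near 1. It was 1.01 for Ins1, 0.998 for Gcg, 0.99 for Chga, 0.97 for Iapp, 0.91 for Chgb and 0.86 for Sst. For Mafa it was 0.77, for Ppy 0.64 and for Pdx1 0.23. At equal Ins2, Iapp was higher after caerulein by 0.44 ± 0.15 on the log2 scale in aged mice (edgeR adjusted p = 0.0289) and by 0.41 ± 0.13 in young mice (adjusted p = 0.0217). Chga was higher in young mice by 0.53 ± 0.13 (edgeR adjusted p = 0.00495), and in aged mice it stood at 0.37 ± 0.14 and did not pass (adjusted p = 0.0571). In this model 27% of all genes were called higher in aged and 27.9% in young mice, while 1 of the 9 members was higher in aged and 2 in young mice. Pdx1 was lower at both ages (-1.52 ± 0.29, adjusted p = 0.00125 in aged, and -1.44 ± 0.26, adjusted p = 0.00101 in young mice), where 21.4% of all genes were called lower in aged and 23.8% in young mice. For Ins1, Gcg, Sst, Ppy, Mafa and Chgb no difference at equal Ins2 passed at either age. Their values at equal Ins2 lay between -0.02 (Mafa) and 0.37 (Gcg) in aged mice and between -0.49 (Mafa) and 0.39 (Chgb) in young mice.

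The Iapp and Chga differences depended on the gene they were set over. Caerulein over untreated, the log2 ratio of Iapp reads in aged mice was 0.45 over Ins2, 0.39 over Ins1, 0.051 over Scg2 and 0.032 over Pcsk2, and in young mice 0.41 over Ins2, 0.57 over Ins1, -0.12 over Scg2 and 0.29 over Pcsk2. That of Chga in aged mice was 0.37 over Ins2, 0.30 over Ins1, -0.031 over Scg2 and -0.051 over Pcsk2, and in young mice 0.52 over Ins2, 0.68 over Ins1, -0.0089 over Scg2 and 0.40 over Pcsk2. Both were thus higher over either insulin gene at each age, near 0 over Scg2, and over Pcsk2 near 0 in aged mice and higher in young mice; these ratios were not tested. Scg2, ranked most like Ins2 with the members left out, was then used as the covariate instead. Iapp and Chga passed at neither age with it. In young mice Ins1 was called lower at -0.69 (edgeR adjusted p = 0.00202) and Ins2 at -0.52 (adjusted p = 0.0197) at equal Scg2. In that model 21.3% of all genes were called lower in aged and 23.5% in young mice. In aged mice Ins1 was then at -0.33 (adjusted p = 0.102) and Ins2 at -0.39 (adjusted p = 0.0935), which did not pass, and Pdx1 passed as lower at both ages (-1.61 in aged and -1.57 in young mice). With the Ins2 covariate and 1 library left out at a time, Iapp passed in 8 of 11 fits in aged and 7 of 11 in young mice, and Chga in 3 of 11 in aged and 11 of 11 in young mice. Iapp missed the threshold in aged mice without caerulein mouse 2 (0.34, adjusted p = 0.0981), untreated mouse 2 (0.35, adjusted p = 0.213) or untreated mouse 3 (0.55, adjusted p = 0.0662), and in young mice without caerulein mouse 1 (0.35, adjusted p = 0.0834), caerulein mouse 3 (0.39, adjusted p = 0.0642), untreated mouse 1 (0.34, adjusted p = 0.089) or untreated mouse 3 (0.40, adjusted p = 0.0507).

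Without young untreated mouse 2, Iapp at equal Ins2 was at 0.44 (adjusted p = 0.00516) in aged and 0.50 (adjusted p = 0.00217) in young mice, and Chga at 0.36 (adjusted p = 0.0248) in aged and 0.58 (adjusted p = 0.00104) in young mice. The young log2 ratio over Ins2 was then 0.51 for Iapp and 0.55 for Chga.

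**Figure D3:**
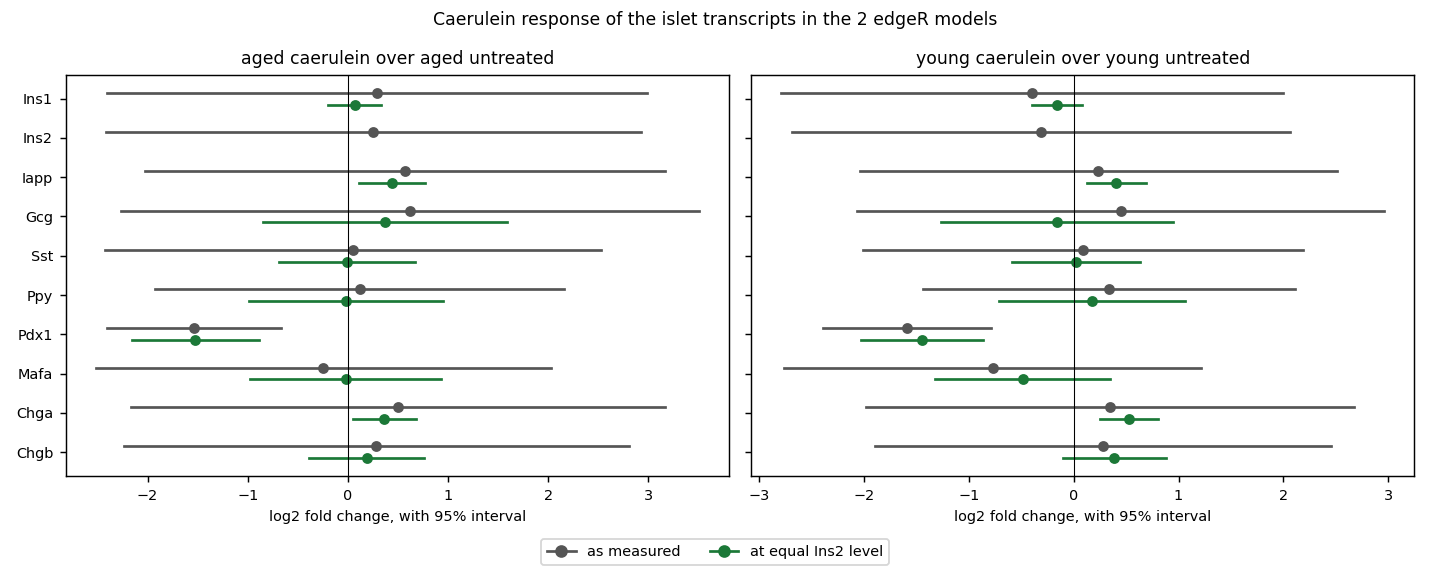
Log2 fold change of each gene after caerulein with its 95% interval, in aged mice (left) and young mice (right), from the model as measured (grey) and from the model with the Ins2 level as covariate (green; Ins2 itself has no value there). As measured, only Pdx1 has an interval clear of 0, and at equal Ins2 the intervals narrow and those of Iapp and Chga lie above 0, although Chga in aged mice did not pass after adjustment.

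Chga is also made by neurons, chromaffin cells and gut endocrine cells. The 12 neuron and chromaffin markers summed to 4.18 to 10.7 CPM of totals in aged caerulein, 4.89 to 15.9 in young caerulein, 1.51 to 1.68 in aged untreated and 2.57 to 5.16 in young untreated mice, so that the sums overlapped in young and not in aged mice. Of the 5 tested, 1 (Tubb3, a tubulin) was higher at each age and 4 did not pass. Dbh, which defines noradrenergic and chromaffin cells, had no reads in any library. The 11 gut markers summed to at most 7.60 CPM, in young caerulein mice, the only one tested (Vil1, an actin-bundling protein of brush borders) was higher at each age, and Gip, Fabp2, Alpi, Sis and Apoa4 had no reads in any library. Their part in the Chga ratio was not tested.

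Ins1 and Ins2 kept a nearly fixed share of insulin reads. Ins1 made up 28.0% (95% Clopper-Pearson interval 26.5 to 29.5), 29.0% (28.0 to 30.1) and 28.2% (27.7 to 28.7) of them in aged caerulein mice. It made up 26.4% (25.9 to 26.9), 24.0% (22.5 to 25.6) and 26.0% (25.3 to 26.7) in young caerulein mice. In aged untreated mice it was 27.1% (25.5 to 28.7) and 27.9% (27.2 to 28.6), and in young untreated mice 27.2% (26.7 to 27.6), 28.2% (26.8 to 29.6) and 27.7% (26.9 to 28.4). These intervals cover counting error only. The share was thus lowest in the 3 young caerulein mice, and the share of aged caerulein mice lay above it without overlap, a pattern of the Ins1 to Ins2 ratio held by 0.425% of all genes for that comparison of ages. Most genes do not follow Ins2, which lowers this percentage, so it does not measure how unusual Ins1 is. At equal Ins2 neither the young caerulein response of Ins1 (-0.16 ± 0.11, edgeR adjusted p = 0.238) nor the comparison of aged with young caerulein mice (0.22 ± 0.11, adjusted p = 0.318, where 3.79% of all genes were called) passed. The transcripts are close paralogs. No 150-base stretch of the Ins1 transcript occurs in an Ins2 transcript of GENCODE M21 and the longest exact run they share is 56 bases, so whole reads can be told apart, but how the authors' counting treated shorter alignments is not given in the sources used here.

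Glucagon relative to insulin varied widely between mice of a group. Per 100 Ins2 reads, Gcg had 9.74, 13.9 and 13.1 reads in aged caerulein, 26.9, 8.27 and 21.8 in young caerulein, 8.50 and 10.4 in aged untreated, and 13.3, 39.9 and 12.2 in young untreated mice. Young untreated mouse 2, the library with the lymphoid and fat transcripts, had the highest ratio of all, and it was also the highest for Sst (3.66 reads, against 1.35 to 2.56 in the other libraries), for Ppy (1.41, against 0.255 to 0.723) and for Chgb (1.20, against 0.647 to 1.07). The cause of this difference between mice was not tested. In untreated mice the Gcg ratio of the aged lay wholly below that of the young, as did 0.581% of all genes, but at equal Ins2 no member passed in that comparison, where 0.149% of genes did, nor in the difference of the responses at equal Ins2, where 0.0638% did. The 0.581% is also lowered by the many genes that do not follow Ins2.

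**Figure D4:**
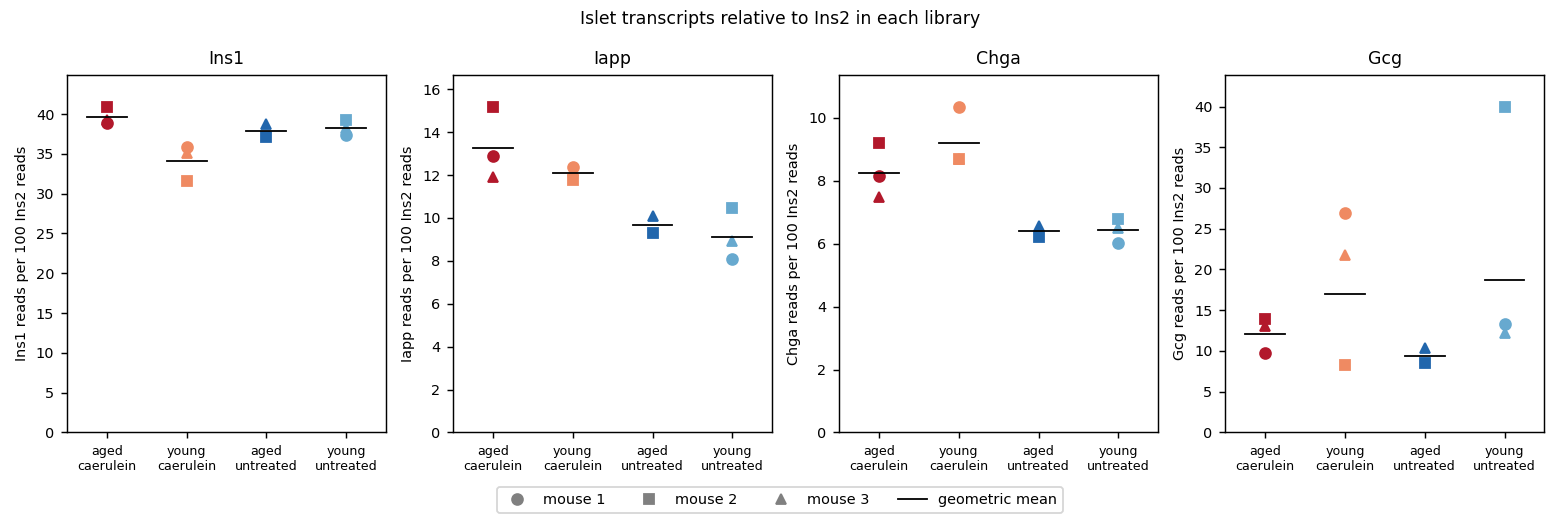
Reads of Ins1, Iapp, Chga and Gcg per 100 Ins2 reads in each library, with groups from left to right aged caerulein, young caerulein, aged untreated and young untreated, and a line at the geometric mean. All caerulein libraries lie above all untreated ones for Iapp (11.8 to 15.2 against 8.09 to 10.5) and Chga (7.48 to 10.3 against 6.04 to 6.78), and young untreated mouse 2 stands at 39.9 for Gcg.

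The other islet genes were followed by lists written from general knowledge. Of 22 beta cell genes tested, 1 was higher, 2 lower and 19 did not pass after caerulein at each age. The median log2 fold change was 0.01 in aged and -0.26 in young mice, against 0.07 and -0.06 over all genes. Over all genes, 48.2% were called in aged and 52.3% in young mice. Those called lower were 21.2% in aged and 24.7% in young mice, and these shares apply to the lists that follow too. The mitochondrial enzyme Hadh was lower (-0.995 ± 0.18 in aged, -0.79 ± 0.16 in young mice) and the bisphosphatase Fbp2 higher (1.31 ± 0.23 in aged, 1.57 ± 0.20 in young mice), and the r with Ins2 between mice was 0.248 for Hadh and -0.58 for Fbp2.

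Of 20 endocrine granule genes, none was higher and 4 were lower in aged and 3 in young mice. Among all genes 21.2% were called lower in aged and 24.7% in young mice, so these counts do not set the list apart as lower. The median log2 fold change of the list was 0.22 in aged and 0.06 in young mice. Rab3a, a GTPase of secretory vesicles, was at 0.457 ± 0.334 CPM in aged caerulein and 8.23 ± 0.604 CPM in aged untreated mice, and at 0.264 ± 0.413 CPM in young caerulein and 9.85 ± 2.30 CPM in young untreated mice (-4.19 ± 0.78 and edgeR adjusted p = 0.00106 in aged, -5.17 ± 0.79 and adjusted p = 0.000258 in young mice). The active zone protein Pclo (-1.55 ± 0.40 in aged, -1.16 ± 0.37 in young mice) and the granule phosphatase Ptprn2 (-0.70 ± 0.19 in aged, -0.76 ± 0.18 in young mice) were lower at both ages, and the calcium channel Cacna1a in aged mice (-1.51 ± 0.38). Between mice the r with Ins2 was 0.895 for Pclo, 0.688 for Ptprn2, 0.664 for Rab3a and 0.616 for Cacna1a, where 15 of the 20 exceeded 0.8. Their slopes on Ins2 were low, at 0.26 for Pclo, 0.09 for Ptprn2, 0.37 for Rab3a and 0.17 for Cacna1a.

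Of 8 alpha cell genes tested, 3 were higher and 1 lower in aged, and 2 higher and 1 lower in young mice (median log2 fold change -0.13 in aged and 0.21 in young mice). The amino acid transporter Slc38a5 was lower at both ages (-1.77 ± 0.29 in aged, -1.77 ± 0.27 in young mice), and Fxyd5, a regulator of the sodium pump (4.02 ± 0.89 in aged, 1.57 ± 0.61 in young mice), and the lysyl oxidase Loxl4 (2.36 ± 0.73 in aged, 1.86 ± 0.60 in young mice) were higher at both. Slc38a5, at 35.6 ± 3.59 CPM in aged caerulein mice, is known from acinar cells as well, and none of these 3 followed Ins2 with r above 0.8. Of 6 genes of delta, PP and epsilon cells, none was called in aged mice and Tspan12, a tetraspanin, was lower in young mice (-1.65 ± 0.34). In both comparisons of ages and in the difference of the responses, no gene of these 4 lists was called.

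Leaving out young untreated mouse 2 changed some of these counts. After caerulein, 1 beta cell gene was then higher at each age, and 3 were lower in aged and 4 in young mice. Of the granule genes 4 were lower in aged and 5 in young mice, with Cacna1a also lower in young mice (-0.94, edgeR adjusted p = 0.0172). Of the alpha cell genes 3 were higher at each age, and 2 were lower in aged and 1 in young mice. Fxyd5, which averaged 15.8 ± 2.91 CPM in young caerulein mice and 5.16 ± 6.23 CPM in young untreated mice with all libraries (edgeR adjusted p = 0.0498), was at 3.28 without that mouse, which had the highest untreated level of 12.3 CPM (adjusted p = 6.44e-08). Tspan12 was then lower in aged mice too (-1.01, adjusted p = 0.0377). Of the acinar markers 14 were lower at each age. Between aged and young caerulein mice, Hadh (-0.44, edgeR adjusted p = 0.00877) and the beta cell factor Nkx2-2 (-1.70, adjusted p = 0.00692) were then called lower in aged mice, both named after their values were seen. The mouse left out is in neither of these groups and acts only through the shared filter, scaling and estimate of spread. With all libraries Hadh was at -0.42 (edgeR adjusted p = 0.191). The share of all genes called without that mouse is not given. Neither an age effect nor a result about the lists is therefore read from these counts and calls.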

How the data were processed

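Gene-level RNA-seq of whole pancreas was used from 11 mice. Libraries were made by the authors from polyadenylated RNA and read as 150-base pairs, per the labels. The submitters' processing notes name HISAT2 2.0.5 for alignment, mm10 as the genome and featureCounts 1.5.0-p3 for counting. Neither annotation release nor strand setting is given in the sources used here. Values in the deposited count table are whole-number counts with no scaling. The authors' deposited comparison tables hold log2 fold changes and p-values with their adjusted values, and the FPKM table was not used.

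Low counts were removed with filterByExpr of edgeR 4.0.16 (R 4.3.3), and TMM-scaled counts of 11 libraries were fitted in 1 model of 4 groups. Quasi-likelihood F tests covered 5 comparisons, with Benjamini-Hochberg adjustment over the 14113 genes and a threshold of 0.05. Log2 CPM used a prior count of 2. Likeness was the correlation of group-centred log2 CPM, and the genes named besides the members were the 8 most like Ins2, the 5 most like Gcg, and up to 4 called genes of smallest p per islet list and comparison; Ucn3, Slc30a8, Tubb3 and Vil1 were named after their values were seen. Genes that the rule selects but that are not named are not reported here. Members and lists were chosen with earlier results of these data known. Nothing in the labels says that mice of a group were kept or processed apart, so p-values measure the spread between these libraries.

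Alternatives were other filters, DESeq2 1.42.0 size factors and test, library totals, the 30 most abundant genes left out of the totals, scaling by islet content genes, a model of only the compared groups, a block for the mouse number, and each library left out in turn. Covariates of Ins2 or Scg2 level, ratios over other genes, a block in young libraries alone, and the lists without young untreated mouse 2 were added after the data were seen. Mouse numbers recur across groups. Same-numbered mice of the young caerulein and young untreated groups deviated together with correlations of 0.106, 0.149 and 0.114, and in the other comparisons correlations ran from -0.207 to 0.13. The numbers were taken to pair young mice in the model of young libraries alone. The block for the mouse number in the model of all groups matched equal numbers across ages and treatments too. The value of 0.13, for aged mouse 3, lies among the young ones, so these correlations do not set the young pairs apart. The main edgeR model and a model with a known covariate were tested on simulated data with known changes. That covariate was not a measured gene, and the other alternatives were not simulated. Sequences are from RefSeq promoter entries and GENCODE M21 transcripts.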

Additional observations from a re-analysis of the deposited data

Results flagged for a closer look

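The log2 ratio of Ins1 to Ins2 reads, set as caerulein over untreated, had opposite signs at the 2 ages. The log2 ratio of caerulein over untreated was 0.0648 in aged mice, where every caerulein library lay above every untreated one, and -0.164 in young mice, where every caerulein library lay below. The difference between the ages was not tested on the ratio itself, and at equal Ins2 the aged minus young difference of the Ins1 response was 0.23 ± 0.16 (edgeR adjusted p = 0.585), which did not pass.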

How the results depend on the processing

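In the caerulein comparisons 1 member, Pdx1, was called at each age. In aged mice the count was 0 with library totals alone, 0 with scaling by islet content genes, 0 or 1 with each library left out (0 without aged untreated mouse 3) and 2 with the Ins2 covariate. In young mice it was 0 with islet content scaling, 3 with the Ins2 covariate and 3 with the Scg2 covariate, and 1 with every library left out. Pdx1 stayed negative in all alternatives run, from -1.84 to -0.89 in aged mice (19 of 22 called) and from -1.93 to -0.999 in young mice (22 of 23 called). In the comparisons of ages and of the responses the count was 0 in every alternative run. The other members changed sign in many alternatives, and no value whose sign had changed was called.

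By leaving out 1 library, the aged caerulein fold changes ranged from -1.20 to 1.57 for Ins1, -1.27 to 1.48 for Ins2, -0.73 to 1.90 for Iapp, -0.93 to 2.09 for Gcg, -1.14 to 1.14 for Sst, -1.03 to 0.97 for Ppy, -0.94 to 1.58 for Mafa, -0.83 to 1.80 for Chga and -1.03 to 1.76 for Chgb. In young mice they ranged from -1.33 to 0.70 for Ins1, -1.21 to 0.82 for Ins2, -0.68 to 1.25 for Iapp, -0.75 to 1.34 for Gcg, -1.08 to 1.12 for Sst, -0.39 to 0.97 for Ppy, -1.58 to 0.43 for Mafa, -0.72 to 1.41 for Chga and -0.58 to 1.31 for Chgb. Aged over young, Ins2 ranged from -1.99 to 0.35 in untreated and -1.75 to 0.67 in caerulein mice, Gcg from -2.76 to -0.41 in untreated and -2.69 to 0.054 in caerulein mice, and Pdx1 from -0.33 to 0.37 in untreated and -0.28 to 0.17 in caerulein mice. The difference of the responses ranged from -0.96 to 1.78 for Ins2 and -0.35 to 0.31 for Pdx1.

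Other sign changes were these. In aged mice after caerulein Mafa was at 0.49 with library totals. Sst was at -0.035 with 30 abundant genes left out, -0.069 with only the groups compared (Ppy -0.016) and -0.0068 with the Ins2 covariate (Ppy -0.021). With the Scg2 covariate Ins1 was at -0.33, Ins2 -0.39, Gcg -0.020, Sst -0.33, Ppy -0.27, Chga -0.014 and Chgb -0.14. In young mice Ins1 was at 0.31 and Ins2 at 0.40 with library totals, and at 0.020 and 0.13 with islet content scaling. Gcg was at -0.16 with the Ins2 covariate, and with the Scg2 covariate Gcg was at -0.67, Sst -0.47, Ppy -0.17, Iapp -0.10, Chga -0.013 and Chgb -0.11. With the mouse number as a replicate block, aged Sst was at -0.12 and Ppy at -0.00168, young Gcg at -0.091 and Sst at -0.15; for aged over young untreated mice Ins2 was at 0.042 and Pdx1 at 0.15, for caerulein mice Ins2 was at 0.43, and the difference of the Pdx1 responses was -0.13. With the block in young libraries alone, Gcg was at -0.30 and Sst at -0.25. The block changed no call. Aged over young, Pdx1 in untreated mice was at 0.30 with islet content scaling, 0.14 with the Ins2 covariate and 0.056 with the Scg2 covariate, and in caerulein mice at -0.000462 with no filter, -0.073 with library totals and -0.0080 with only the groups compared. The difference of its responses was -0.21 with islet content scaling, -0.080 with the Ins2 covariate and -0.043 with the Scg2 covariate. The difference of the responses needs all 4 groups, so a model of only the compared groups gives no other value for it. The causes were not tested. The fewest reads in a library were 4 for Mafa, 14 for Ppy and 15 for Chgb, and the spread between mice was wide for these and for insulin.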
